A study of Mus musculus with 21 samples.

Results

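Fast, slow and cardiac-fetal sarcomere and calcium handling genes were examined in mouse rhabdomyosarcoma (RMS), a tumor of cells committed to skeletal muscle. The 43 genes were a fixed list, each read from 1 probe set, out of 19505 genes measured. They were divided by textbook use into 14 fast genes, 8 slow genes, 2 cardiac-fetal genes, 11 sarcomere genes shared by fibre types, 4 genes of excitation-contraction coupling and 4 genes of energy supply. Total RNA of 21 tumors was measured with 1 Clariom S Mouse array for each tumor. There were 14 tumors from NPE mice (Neu1+/−/Ptch1+/−/ETV7 TG+/−) and 7 from PE mice (Ptch1+/−/ETV7 TG+/−), so both groups carried 1 Ptch1 allele and a transgene for human ETV7, and the groups differed by the loss of 1 allele of Neu1, the lysosomal sialidase. Neu1+/− mice on FVB/NJ had been bred with Ptch1/ETV7 mice of another, mixed background, in both sexes and over a wide range of ages, and what drives the transgene is not given in the sources used here. Tumors arose in the trunk or the limbs and were frozen at dissection, but the site, sex and age of a given tumor were not in the labels. Nothing in the labels says whether any tumors shared a mouse, so the p-values measure only the spread between these samples.

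The sarcomere is the contractile unit of striated muscle, in which myosin heavy chains with their light chains pull on actin filaments, and troponin and tropomyosin on the actin filament let calcium switch contraction on. Fast and slow fibres build the same unit from different gene copies, the fast fibre with Myh4, Myh2 or Myh1 and the slow fibre with Myh7, each with its own light chains and troponins. Skeletal muscle in development also uses the cardiac copies of actin (Actc1) and troponin T (Tnnt2), which adult skeletal fibres largely replace with Acta1 and Tnnt3 or Tnnt1. RMS cells start this program without completing it, and muscle genes are used in its diagnosis.

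All values are log2 signals after RMA. Median signals of the arrays lay between 5.32 and 5.41, and every member stood above the background probes, whose medians were 2.64 to 3.18. Levels of different probe sets cannot be compared, so class values are means of genes each set to 0 at its own mean over the 21 tumors. Desmin (Des), a muscle intermediate filament, had a log2 signal of 9.27 to 10.87 in all 21 tumors, which alone does not identify skeletal muscle. The tumor NPE 3 stood apart. It was lowest of all tumors for Des, for the myogenic factors Myod1 (6.49) and Myog (6.08) and for 29 of the 43 members. Its means over marker lists of endothelial (1.03), macrophage (0.81) and fibroblast genes (0.47) were the highest of all tumors. Its smooth muscle mean (1.61) came after that of NPE 4 (1.88). Of the 9 smooth muscle genes it was highest for some, as Cnn1 (10.56) and Actg2 (11.30), and NPE 4 was highest for others, as Myh11 (10.24). A last number in the tumor titles fell into the ranges 1 to 10 (8 NPE tumors), 18 to 23 (1 NPE and 5 PE tumors) and 28 to 35 (5 NPE and 2 PE tumors). Its meaning is not stated, and it was treated as a possible batch. Tumors were also compared by their deviations from the group means over all tested probe sets. In these, NPE 11 and 12 (r = 0.74), PE 6 and 7 (r = 0.52) and NPE 7 and 8 (r = 0.51) resembled each other most and may not be independent. In bulk tumor RNA, fewer muscle cells and less muscle RNA per cell cannot be told apart.

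Fast genes had higher means in NPE tumors, slow genes were divided, and both cardiac-fetal genes had lower means, but no member passed the test of the genotypes. With the threshold at an adjusted p of 0.05 (limma, Benjamini-Hochberg over 22206 probe sets) 0 of 43 members were called, where 0.00901% of all probe sets were. At an unadjusted p of 0.05, 7 members were higher in NPE tumors (Actn3, Pvalb, Myl2, Myl3, Tpm1, Ckm and Pygm) and 0 were lower, against 4.05% of all probe sets higher and 4.36% lower. The mean was higher in NPE tumors for 30 members and lower for 13, against 49.8% of all probe sets higher. A log2 difference of at least 0.5 was reached by 12 members upward and 0 downward, against 2.28% and 1.29% of all probe sets. The count at the unadjusted p depended on single tumors. It was 17 without NPE 3 (4.26% of all probe sets) and 4 without PE 5 (3.53%) or without PE 6 (2.86%).

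By class, the median log2 difference (NPE minus PE) was 0.54 for the fast genes, of which 13 of 14 had a higher mean in NPE tumors. It was -0.03 for the slow genes (4 higher and 4 lower), -0.25 for the cardiac-fetal genes, 0.08 for the shared sarcomere genes, -0.01 for the coupling genes and 0.56 for the energy genes. Over all tested probe sets it was -0.001. Without NPE 3 the fast median was 0.68 and the slow median 0.08. Without PE 6 they were 0.33 and -0.18.

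**Figure D1:**
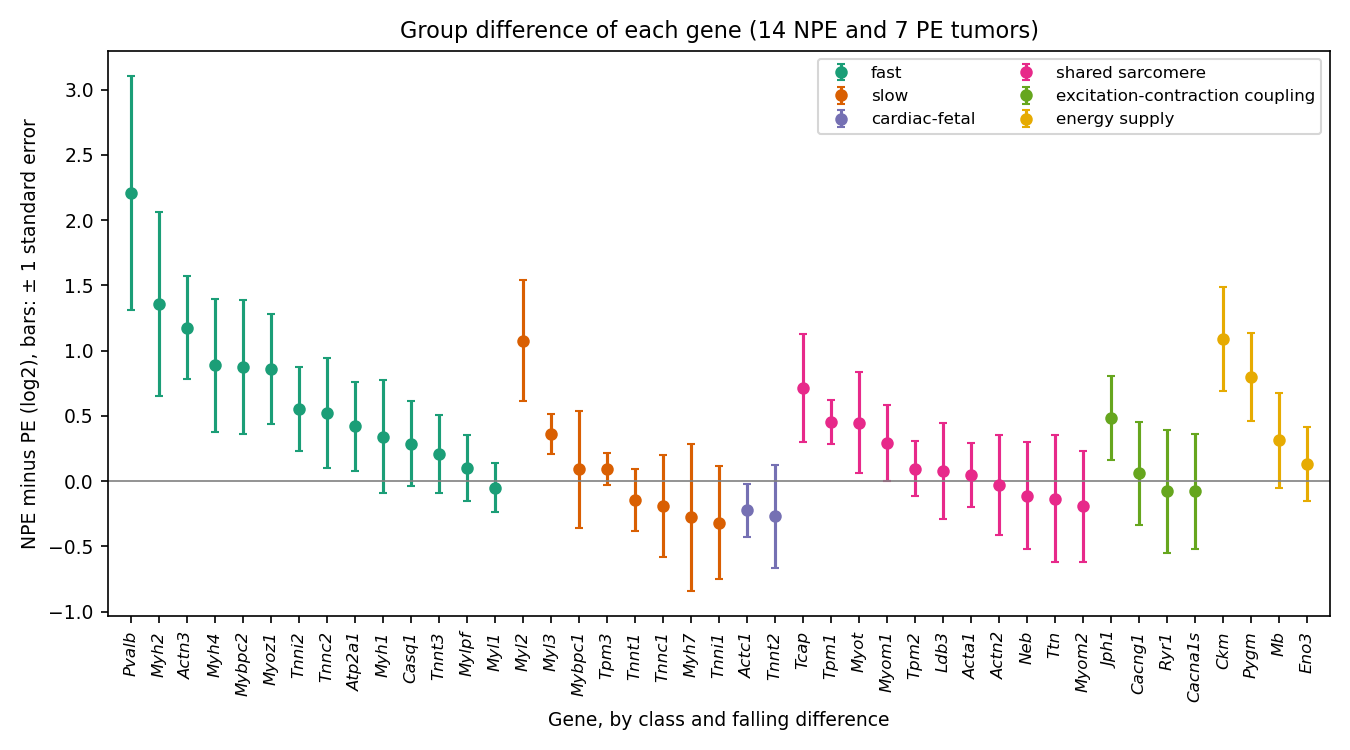
Log2 difference between the means of 14 NPE and 7 PE tumors for each of the 43 genes, with bars of 1 standard error, grouped and coloured by class. Of the fast genes 13 lie above 0, Pvalb highest at 2.20, and both cardiac-fetal genes lie below 0.

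Parvalbumin (Pvalb), the soluble calcium buffer that speeds relaxation of fast fibres, had the widest spread of all members, and its standard deviation over the 21 tumors was at the 99.98th percentile of all genes. Its log2 signal was 4.64, 8.05 and 11.25 (lowest, median and highest) in NPE tumors and 4.32, 5.14 and 8.33 in PE tumors. The groups overlapped, with 7 NPE tumors above every PE tumor. The difference was 2.20 (standard error 0.90, adjusted p = 0.533, exact permutation p = 0.038). Alpha-actinin 3 (Actn3), the Z-disc crosslinker found only in fast fibres, was even in PE tumors, at 7.46, 7.74 and 8.26, while NPE tumors reached from 7.64 over a median of 8.61 to 11.42. Of the NPE tumors 8 lay above every PE tumor, and the difference was 1.18 (standard error 0.39, adjusted p = 0.507, exact permutation p = 0.010). NPE 1, at 11.42, and NPE 2, at 10.37, were the highest.

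Among the myosin heavy chains, the motor proteins that set fibre type, Myh4 (the IIb chain of the fastest fibres) had log2 signals of 8.34, 10.11 and 12.18 in NPE tumors and 8.31, 9.74 and 10.47 in PE tumors. Its difference was 0.89 (standard error 0.51, adjusted p = 0.646, exact permutation p = 0.125). Myh2 (IIa) lay at 7.68, 11.16 and 11.80 in NPE tumors and at 4.85, 10.54 and 11.03 in PE tumors, where PE 6 alone was at 4.85 and PE 7 at 7.82. With these 2 tumors in its PE mean, the difference was 1.36 (standard error 0.71, adjusted p = 0.619, exact permutation p = 0.090). Myh1 (IIx) differed by 0.34 (standard error 0.43). Slow Myh7 (beta), also a heart chain, lay at 6.25, 9.99 and 11.20 in NPE tumors and at 8.62, 9.90 and 10.99 in PE tumors. Its difference was -0.28 (standard error 0.56, adjusted p = 0.932, exact permutation p = 0.676), and NPE 3 (6.25) and NPE 5 (6.58) stood well below the rest. Myh1, Myh2 and Myh4 are neighbouring, nearly identical copies, and how far their probes read each other's RNA was not tested.

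The fast light chains Mylpf (regulatory) and Myl1 (essential) were among the members of smaller spread, apart from NPE 3. Mylpf lay at 9.08, 11.50 and 11.63 in NPE tumors and at 10.46, 11.30 and 11.51 in PE tumors, which gives a difference of 0.10 (standard error 0.25). Myl1 lay at 10.58, 12.50 and 12.55 against 12.11, 12.44 and 12.57, a difference of -0.05 (standard error 0.19). The slow light chains, which the heart ventricle also uses, had higher means in NPE tumors. Myl2 (regulatory) lay at 4.84, 6.83 and 8.12 in NPE tumors and at 4.45, 5.45 and 6.83 in PE tumors, with 7 NPE tumors above every PE tumor. The difference was 1.08 (standard error 0.46, adjusted p = 0.540, exact permutation p = 0.047). Myl3 (essential) differed by 0.36 (standard error 0.15, adjusted p = 0.540, exact permutation p = 0.037), from 5.82, 6.45 and 7.00 in NPE and 5.50, 6.05 and 6.40 in PE tumors.

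Troponin C, I and T form the calcium switch of the thin filament. Fast Tnnc2 differed by 0.52 (standard error 0.42) and slow Tnnc1 by -0.19 (standard error 0.39). Fast Tnni2, the inhibitory subunit, differed by 0.55 (standard error 0.32) and slow Tnni1 by -0.32 (standard error 0.43). In troponin T, which holds the complex on tropomyosin, fast Tnnt3 differed by 0.21 (standard error 0.30), slow Tnnt1 by -0.14 (standard error 0.24) and cardiac-fetal Tnnt2 by -0.27 (standard error 0.39). Each slow or fetal troponin was lowest in NPE 3, at 7.54 for Tnnc1, 6.88 for Tnni1, 8.80 for Tnnt1 and 6.87 for Tnnt2. Their differences without NPE 3 were 0.06 for Tnnc1, -0.02 for Tnni1, -0.02 for Tnnt1 and -0.0007 for Tnnt2. The myosin-binding protein C genes, whose proteins bind myosin within the thick filament, differed by 0.87 (standard error 0.51) for fast Mybpc2 and by 0.09 (standard error 0.45) for slow Mybpc1.

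Of the sarcomeric actins, cardiac-fetal Actc1 lay at 8.60, 9.97 and 10.73 in NPE tumors and at 9.74, 10.10 and 10.39 in PE tumors. NPE 1 was the lowest tumor for this gene and the highest for 28 other members. The difference was -0.22 (standard error 0.20, adjusted p = 0.807, exact permutation p = 0.323), with 5 NPE tumors below every PE tumor and 2 above. Skeletal Acta1 lay at 9.72, 11.99 and 12.30 in NPE tumors and between 11.11 and 12.03 in PE tumors (mean 11.76), which gives a difference of 0.05 (standard error 0.25). Tropomyosin Tpm1, which covers the myosin sites on actin, was higher in NPE tumors by 0.45 (standard error 0.17, adjusted p = 0.513, exact permutation p = 0.019), and 9 NPE tumors lay above every PE tumor. Tpm2 differed by 0.10 (standard error 0.21) and slow Tpm3 by 0.09 (standard error 0.12). Tpm3 had the smallest spread of all members, at the 54.5th percentile of all genes, and other tissues use it as well.

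Genes of the giant filaments and of the Z-disc and M-band gave no call either. The spring titin (Ttn) differed by -0.13 (standard error 0.48) and the thin-filament ruler nebulin (Neb) by -0.11 (standard error 0.41). Among Z-disc genes, Actn2 differed by -0.03, Ldb3 by 0.08, Myot by 0.45, Tcap by 0.71 (standard error 0.41) and the fast gene Myoz1 by 0.86 (standard error 0.42, adjusted p = 0.597). The M-band genes Myom1 and Myom2 differed by 0.29 and -0.19. Calcium release also showed no call. The pump Atp2a1 (SERCA1), which returns calcium to the store in fast fibres, lay at 8.97, 11.25 and 12.26 in NPE and at 9.46, 10.77 and 11.46 in PE tumors, which gives a difference of 0.42 (standard error 0.34). The store protein Casq1 differed by 0.29, the release channel Ryr1 by -0.08, its voltage sensor Cacna1s by -0.08, the sensor's gamma subunit Cacng1 by 0.06 and the junction protein Jph1 by 0.48. In energy supply, muscle creatine kinase (Ckm) lay at 7.70, 8.55 and 11.15 in NPE tumors and at 7.12, 7.82 and 8.65 in PE tumors, which gives a difference of 1.09 (standard error 0.40, adjusted p = 0.513, exact permutation p = 0.020). Glycogen phosphorylase Pygm differed by 0.80 (standard error 0.34, adjusted p = 0.540), myoglobin (Mb), the oxygen store of slow and oxidative fibres, by 0.31 (standard error 0.36), and the enolase Eno3 by 0.13 (standard error 0.29).

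**Figure D2:**
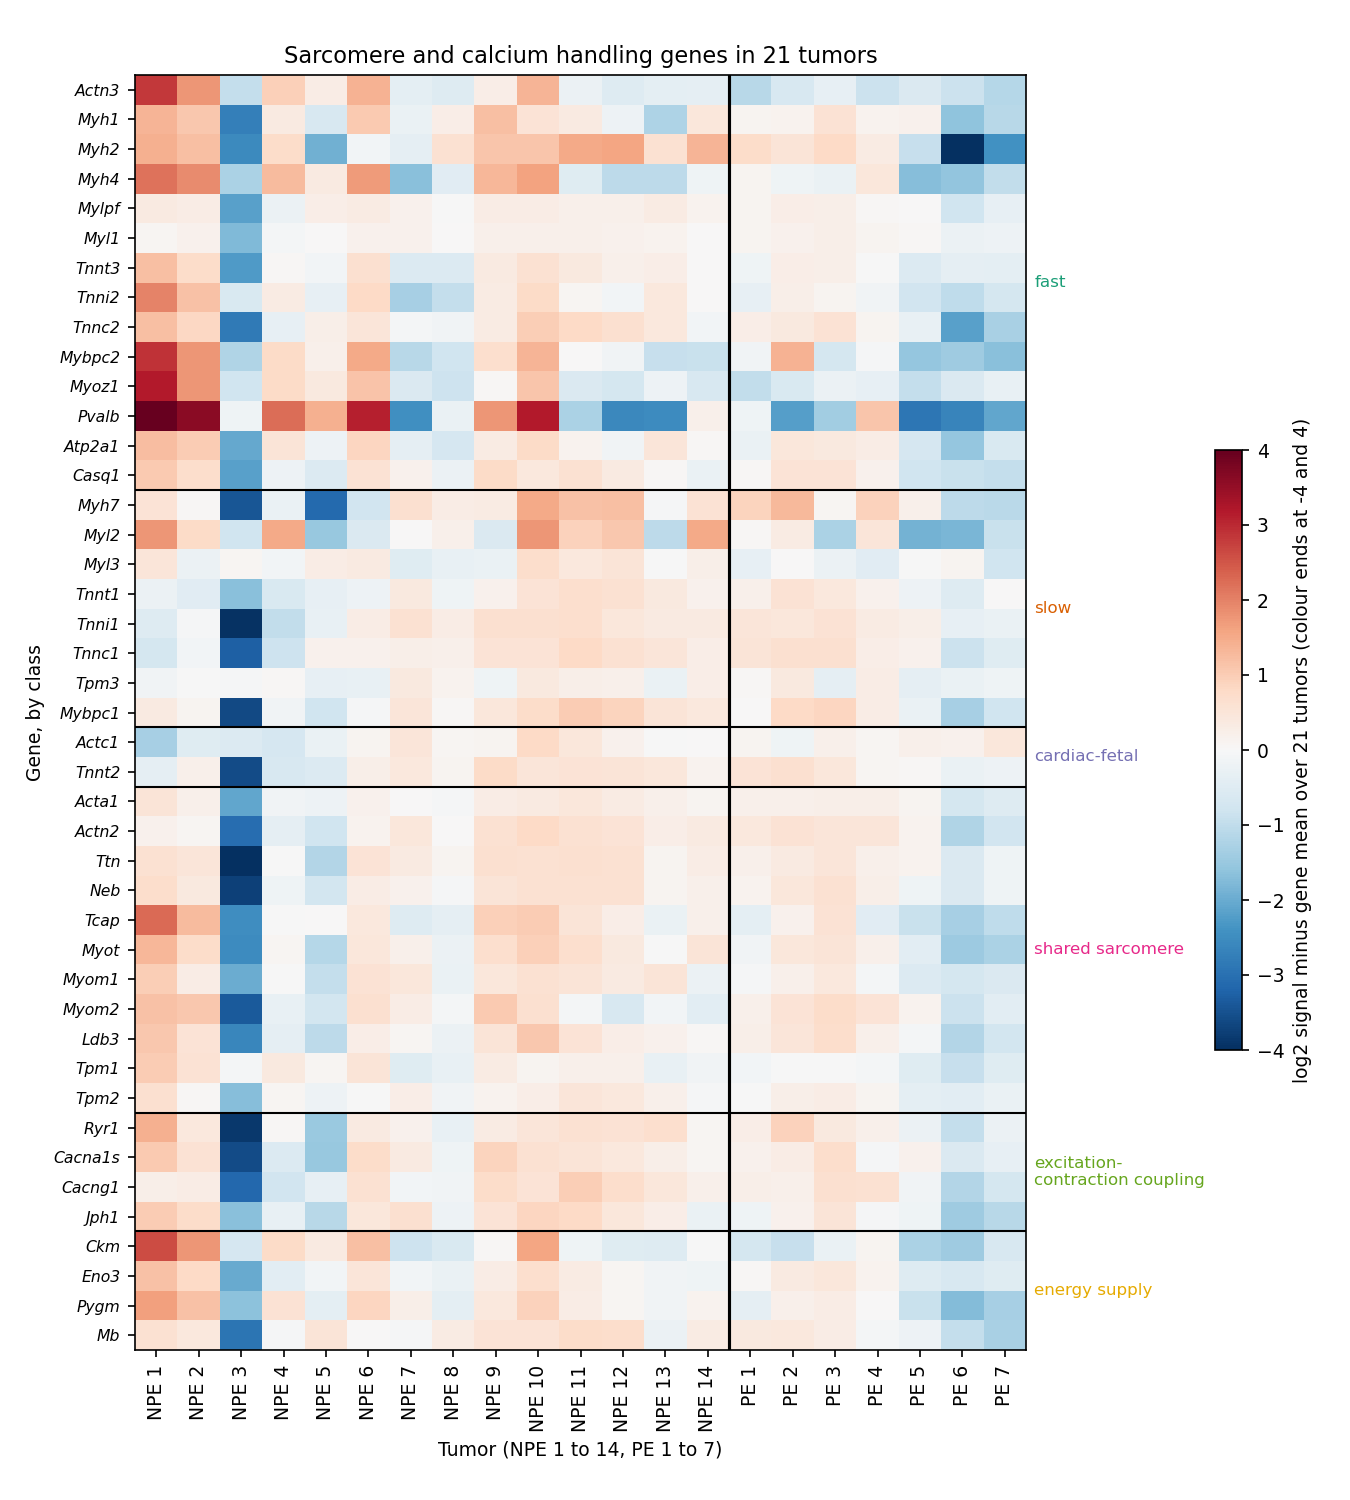
Log2 signal of each of the 43 genes (rows, by class) in each of the 21 tumors (columns), minus the gene's mean over the tumors. NPE 3 is lowest for 29 genes and NPE 1 highest for 28, while Pvalb runs from 4.32 in PE 5 to 11.25 in NPE 1.

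The members varied widely between tumors. For 32 of 43 members the standard deviation over the 21 tumors was at or above the 95th percentile of all genes, and after Pvalb it was highest for Myh2 (99.92), Myh7 (99.57), Mybpc2 (99.48) and Myh4 (99.48). Part of this spread came from NPE 3, the lowest tumor for 29 members. Without it the standard deviation went from 1.11 to 0.45 for Ttn, from 1.01 to 0.46 for Tnni1 and from 0.94 to 0.40 for Neb. For Pvalb it went from 2.32 to 2.38, and for Myh4 it was 1.24 both ways. The mean over all members was -2.14 in NPE 3, -1.07 in PE 6 and -0.72 in PE 7, and it was highest in NPE 1 (1.05), NPE 10 (0.83) and NPE 2 (0.69). The classes did not rank the tumors alike. Fast genes were highest in NPE 1 (1.79), NPE 2 (1.29), NPE 10 (1.02) and NPE 6 (0.97), whereas the slow genes stood at 0.20, 0.01, 0.86 and -0.13 in these tumors. Slow genes were highest in NPE 10, then in NPE 11 (0.74) and NPE 12 (0.69), where the fast genes stood at 0.12 and -0.16. In NPE 1 the cardiac-fetal mean was -0.84. NPE 10 was high in all 3 classes and NPE 3 was low in all of them.

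**Figure D3:**
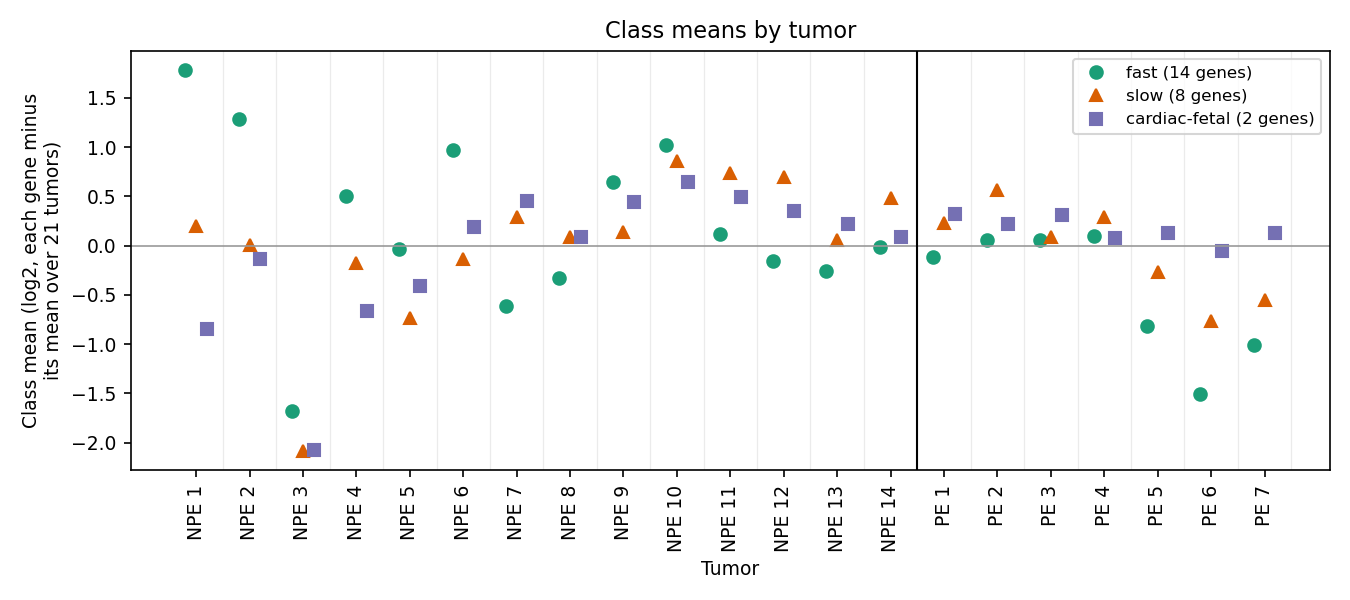
Means of the 14 fast, 8 slow and 2 cardiac-fetal genes in each tumor, on a log2 scale with every gene set to 0 at its mean over the 21 tumors. The classes part most in NPE 1, with 1.79 for fast and -0.84 for cardiac-fetal genes, and lie together in NPE 3, between -2.09 and -1.68.

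The fast class itself held a pair of patterns. Over the 21 tumors Pvalb followed Myh4 (r = 0.94, Spearman's rho = 0.92), with r = 0.92 without NPE 1 and NPE 2 and r of 0.93, 0.93 and 0.96 within the title ranges 1 to 10, 18 to 23 and 28 to 35. Ckm also followed Myh4 (r = 0.90, rho = 0.85, and r = 0.88 without NPE 1 and NPE 2). The fast light chain Mylpf instead followed the shared actin Acta1 (r = 0.96, rho = 0.66), and with Myh4 its r was 0.42 (rho = 0.57). Without NPE 3 and PE 6, the farthest tumors, r of Acta1 and Mylpf was 0.74. These correlations describe arrays that were normalized together, and no p-value is given. Of the 41 other members, 10 had a higher r with Myh4 than with Acta1. They were the fast genes Actn3, Tnni2, Mybpc2, Myoz1 and Pvalb, the slow light chains Myl2 and Myl3, and Tpm1, Ckm and Pygm. Without NPE 3 it was 12 members, of which 8 were fast and 0 slow, since Myh1, Tnnt3, Atp2a1 and Tcap joined and Myl2 and Myl3 left. The other fast genes Myl1, Mylpf, Tnnc2, Casq1 and Myh2 stayed closer to Acta1 both ways. All 7 members with an unadjusted p under 0.05 (limma) were among the 10. This overlap was not kept without NPE 3, when 17 members were under 0.05, against 4.26% of all probe sets higher. Of these, Myh2, Mylpf, Tnnc2, Myl2, Myl3, Myot, Myom1, Jph1 and Mb were not among the 12.

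**Figure D4:**
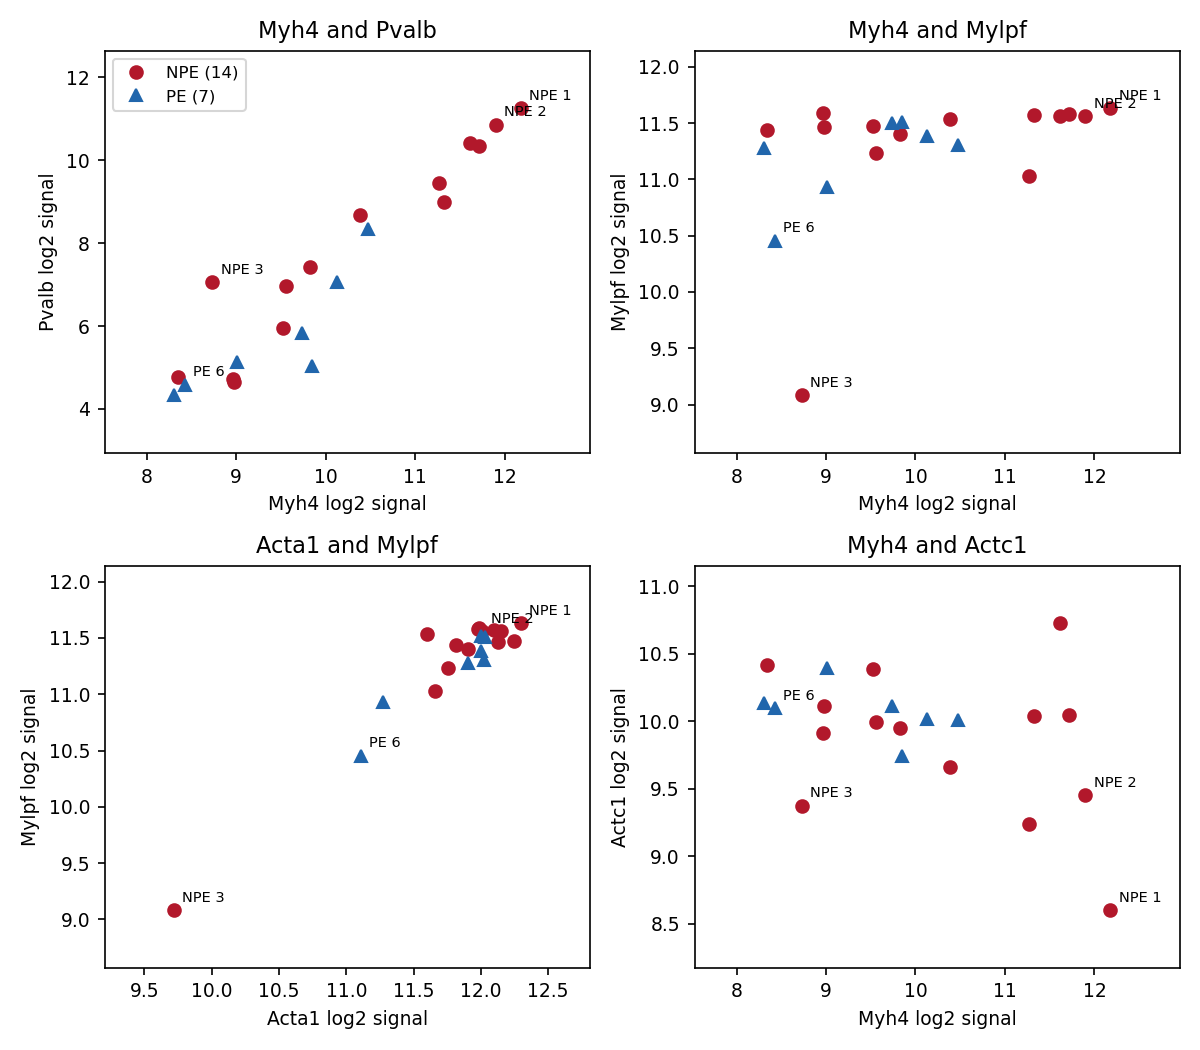
Log2 signals of 4 gene pairs in 14 NPE tumors (circles) and 7 PE tumors (triangles), with NPE 1, NPE 2, NPE 3 and PE 6 named. Pvalb rises with Myh4 (r = 0.94), Mylpf is nearly level over the range of Myh4 but falls with Acta1 in NPE 3 and PE 6, and Actc1 is lowest in NPE 1.

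Actc1 ran against Myh4 (r = -0.41, rho = -0.39), but r was -0.08 without NPE 1 and NPE 2, and within the title ranges 1 to 10, 18 to 23 and 28 to 35 it was -0.29, 0.53 and -0.84, so the relation rests on few tumors. The other cardiac-fetal gene, Tnnt2, followed slow troponin I, Tnni1 (r = 0.98, rho = 0.90, and r = 0.90 without NPE 3 and NPE 4). This was not particular to slow genes. With the fast light chain Myl1 its r was 0.96 (rho = 0.78, and r = 0.71 without NPE 3 and NPE 4), and with Acta1 its r was 0.90. Myh4 and Myh7 were hardly related over the 21 tumors (r = 0.16, rho = 0.14), so tumors high in the fastest chain were not regularly low in the slow one. NPE 10 had 11.61 for Myh4 with 11.20 for Myh7, NPE 5 had 10.38 with 6.58, and NPE 7 had 8.34 with 10.33.

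Fast and slow copies of the same protein were then set against each other within each tumor. This takes out a shift only where both copies move by the same log2 amount. NPE 3, low in all 3 classes, was highest of all tumors for Tnni2 minus Tnni1 (3.33) and lowest for Myl1 minus Myl3 (-1.84), each set to 0 at its mean. The class mean of fast genes minus that of slow genes lay between -0.75 and -0.03 in the PE tumors and between -0.90 and 1.59 in the NPE tumors. NPE tumors averaged 0.20 ± 0.81 (s.d., n = 14) and PE tumors -0.41 ± 0.24 (s.d., n = 7). Of the NPE tumors 8 lay above every PE tumor, 2 lay below, and the PE tumors were less spread. Fast minus cardiac-fetal gave 0.31 ± 0.96 (s.d., n = 14) and -0.63 ± 0.55 (s.d., n = 7). These class values were not tested, since the members were chosen with earlier results known. Within pairs, the difference was larger in NPE tumors for 5 of 7 fast and slow pairs. It was 1.16 for Myh4 minus Myh7, 0.87 for Tnni2 minus Tnni1, 0.78 for Mybpc2 minus Mybpc1, 0.71 for Tnnc2 minus Tnnc1 and 0.35 for Tnnt3 minus Tnnt1. Troponin C separated the groups most by count, with 9 NPE tumors above every PE tumor and 0 below. The light chains went the other way, with -0.98 for Mylpf minus Myl2, where 8 NPE tumors lay below every PE tumor, and -0.42 for Myl1 minus Myl3. For the adult and fetal copies it was 0.48 for Tnnt3 minus Tnnt2 and 0.27 for Acta1 minus Actc1.

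**Figure D5:**
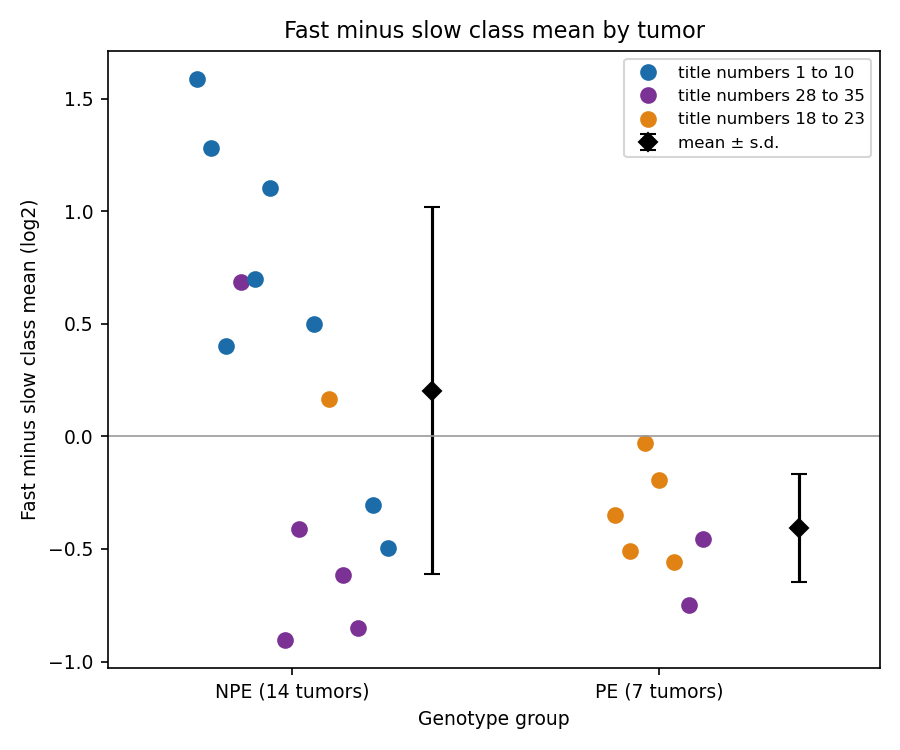
Fast minus slow class mean of each tumor (log2), by group and coloured by the range of the title number, with the mean and 1 standard deviation of each group beside the points. NPE tumors spread from -0.90 to 1.59, and 6 of the 8 in the range 1 to 10 lie above every PE tumor.

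The fast-over-slow tumors lay mostly in 1 title range, which held no PE tumor. In the range 1 to 10 the fast minus slow value was 0.60 ± 0.73 (s.d., n = 8) in NPE tumors. In the range 28 to 35 it was -0.42 ± 0.65 (s.d., n = 5) in NPE and -0.60 in the mean of PE 6 and PE 7. In the range 18 to 23, NPE 10 was at 0.16 and the PE tumors at -0.33 ± 0.22 (s.d., n = 5). A block for the range compares the genotypes only within ranges, so the 8 NPE tumors of the range 1 to 10 do not enter its differences. With the range as a block the NPE minus PE difference of this value was 0.30 in place of 0.61, and 4 of 7 pairs were positive, Myh4 minus Myh7 now at -0.13. Within the range 28 to 35 it was 0.18, with 1 of 7 pairs positive (Tnnc2 minus Tnnc1, 1.03) and Myh4 minus Myh7 at -0.84. Within the range 18 to 23, which has 1 NPE tumor, it was 0.49, with 5 of 7 positive. Fast minus cardiac-fetal stayed at 0.94 with the block, and was 1.06 and 0.74 within these ranges.

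Title range also moved the level of the whole list. With the range as a block the NPE minus PE difference was above 0 for all 43 members, with medians of 0.96 for fast, 0.57 for slow and 0.23 for cardiac-fetal genes. These differences come from the ranges 18 to 23 and 28 to 35 only. Over all probe sets 44.6% were higher under this block. None of the members was called (limma), against 0.0630% of all probe sets, and 13 were higher at an unadjusted p of 0.05, against 3.72% of all probe sets. Within the range 28 to 35 alone, 42 of 43 were higher and 6 were called, namely Myh2 (4.72, adjusted p = 0.030), Tnnc2 (1.90, adjusted p = 0.046), Pygm (1.67, adjusted p = 0.024), Myot (1.59, adjusted p = 0.023), Myh1 (1.46, adjusted p = 0.028) and Mb (1.46, adjusted p = 0.037). Over all probe sets 43.9% were higher there, and 0.671% were called higher. That comparison rests on PE 6 and PE 7, which resembled each other and had the lowest member means of the PE tumors. In the range 18 to 23 the only NPE tumor was NPE 10, which had the second-highest mean over the members, so the 43 of 43 members higher there (48.5% of all probe sets) describe that tumor.

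Of the marker lists of other cells, those of adipocytes, lymphocytes, smooth muscle and endothelium had the highest correlations with the fast minus slow value. Other lists had r of 0.11 for the macrophage, 0.04 for the fibroblast, 0.005 for the Schwann cell and -0.27 for the keratinocyte mean. All 9 adipocyte genes measured had a higher mean in NPE tumors (median log2 difference 1.19, 6 of them at an unadjusted p of 0.05 and 0 called). Their mean over a tumor ran from -1.28 to 3.42 (NPE) and from -1.47 to 0.43 (PE), and was highest in NPE 1 (3.42) and NPE 2 (3.22). These were also the highest tumors for the fast minus slow value (1.59 and 1.28), and r without them was not computed. Over the 21 tumors the adipocyte mean correlated with the fast minus slow value at r = 0.76. The lymphocyte mean (9 genes, -0.74 to 1.22 in NPE tumors, -0.63 to 0.40 in PE tumors) did so at r = 0.78, the smooth muscle mean (9 of 9 genes higher in NPE tumors, median 0.72, -1.16 to 1.88 against -0.97 to -0.15) at r = 0.58, and the endothelial mean (9 of 9 genes higher, median 0.29, 4 at an unadjusted p of 0.05) at r = 0.43. With the mean of the fast genes itself r was 0.55 for the adipocyte, 0.51 for the lymphocyte, 0.03 for the smooth muscle and 0.04 for the endothelial mean, and with the mean of all members it was 0.28, 0.20, -0.29 and -0.25. The part of these cells in the fast minus slow value was not tested. Without NPE 1 and NPE 2 the difference of that value was 0.40, and the medians were 0.35 for fast, -0.02 for slow and -0.18 for cardiac-fetal genes. Without NPE 3 as well they were 0.50, 0.14 and 0.01.

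Heart markers other than the members varied little. Of 10 genes 0 were called, Nppa, an atrial peptide hormone, was higher in NPE tumors at an unadjusted p of 0.05 (0.27, adjusted p = 0.513), and the mean of the 10 ran from -0.15 to 0.19 (NPE) and from -0.14 to 0.22 (PE). The atrial and adult ventricular myosin of mouse, Myh6, lay between 4.54 and 5.74. In the group means, 12 of 15 embryonic and regenerating muscle genes were lower in NPE tumors (median -0.34, 0 called, and Cdh15 lower at an unadjusted p of 0.05). The mean of this list was far lowest in NPE 3 (-2.82), then in NPE 1 (-0.80), so the lower group means rest partly on NPE 3. Its median over the tumors was 0.16 (NPE) and 0.29 (PE). Myog differed by -0.71 (standard error 0.38, adjusted p = 0.624) and embryonic Myh3 by -0.58 (standard error 0.44), whereas perinatal Myh8 differed by 0.46 (standard error 0.34). The list's mean correlated with the fast minus slow value at r = -0.45, but with the mean of the fast genes at r = 0.25 and with the mean of all members at r = 0.61.

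A further list held sarcomere and calcium handling genes that are not members. Of its 51 genes 48 were measured, 30 had a higher and 18 a lower mean in NPE tumors, and 0 were called. At an unadjusted p of 0.05, 4 were higher, against the 4.05% of all probe sets given above. These were the fast-fibre myosin light chain kinase Mylk2 (0.98), mitochondrial creatine kinase Ckmt2 (1.12) and the phosphorylase kinase subunits Phkg1 (1.19) and Phka1 (0.74), all highest in NPE 1. The list's mean followed that of the members (r = 0.98) but not the fast minus slow value (r = 0.17). Of 15 regulators of fibre type 0 were called. Eya1, a cofactor of homeodomain factors that drive fast genes, differed by -0.58 (standard error 0.22, adjusted p = 0.513). Prox1, a factor linked to slow fibres, differed by -0.80 (standard error 0.30, adjusted p = 0.513), and Ppargc1a, a coactivator of oxidative metabolism, by 1.04 (standard error 0.48).

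Start regions were read for members that moved together and for members that did not. RefSeq (GRCm38.p6) gave 42 start regions for 33 of the 43 members, each with 250 bases before and 50 after an annotated start. Printed below are the 250 bases before the start for Myh4 and Pvalb, which moved together. For the actins Acta1 and Actc1, which did not, only the 150 bases next to the start are printed. Each is given 5′ to 3′ on the gene's strand. Pvalb has a pair of annotated starts, and the one that holds a MEF2 motif is shown. Capitals mark matches, on either strand, to the MEF2 motif, the CArG box (bound by serum response factor), the TATA box TATAAA and the E-box CAGCTG (bound by myogenic factors such as MyoD).
Myh4 (chr11:67237562-67237811, plus strand): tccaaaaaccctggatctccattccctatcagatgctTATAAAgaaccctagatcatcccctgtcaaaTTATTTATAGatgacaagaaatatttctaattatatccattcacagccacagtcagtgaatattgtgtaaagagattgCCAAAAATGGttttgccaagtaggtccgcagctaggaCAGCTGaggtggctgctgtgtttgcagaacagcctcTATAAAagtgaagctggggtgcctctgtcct
Pvalb (chr15:78206401-78206650, minus strand): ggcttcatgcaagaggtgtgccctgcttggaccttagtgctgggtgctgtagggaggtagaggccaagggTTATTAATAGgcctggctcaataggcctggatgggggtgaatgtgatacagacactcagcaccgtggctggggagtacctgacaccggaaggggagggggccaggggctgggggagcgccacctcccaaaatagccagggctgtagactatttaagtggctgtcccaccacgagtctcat
Acta1 (chr8:123894776-123894925, minus strand): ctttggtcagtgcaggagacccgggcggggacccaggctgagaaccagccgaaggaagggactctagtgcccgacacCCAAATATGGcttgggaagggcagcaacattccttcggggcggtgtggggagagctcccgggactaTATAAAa
Actc1 (chr2:114052876-114053025, minus strand): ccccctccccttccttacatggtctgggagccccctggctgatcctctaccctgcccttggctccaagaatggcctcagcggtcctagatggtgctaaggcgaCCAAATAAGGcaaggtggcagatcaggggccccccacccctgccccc
Over all members, the E-box CAGCTG was in 20 of the 42 start regions (47.6%), against 16.3% of the 32851 start regions in the table. The general E-box CANNTG, which includes it, was in 36 (85.7%) against 72.3%. The CArG box was in 7 (16.7%) against 1.63%, the MEF2 motif in 4 (9.52%) against 3.19% and TATAAA in 8 (19.0%) against 13.6%. Start regions of the same gene can overlap, so 1 site can count more than once, as the CArG box of Ldb3 did. Counted by gene, the CArG box was in 6 and CAGCTG in 17 of the 33 members. Some of these matches, as CAGCTG in Acta1, lie outside the bases printed. By gene, the MEF2 motif was found in Myh1, Myh4 and Pvalb of 10 fast genes with a start region, in 0 of 8 slow genes and in Ttn. CAGCTG was found in 5 of 10 fast and 4 of 8 slow genes and in 4 of 4 energy genes. The CArG box was found in Myh4, Myl3, Actc1, Acta1, Myom1 and Ldb3. In Myh4 a second TATAAA lies upstream, and the same letters start within the MEF2 match on the other strand. These are matches of letters in short windows and were not tested for use in the tumors.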

How the data were processed

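The authors isolated total RNA from frozen tumors, hybridized it to Clariom S Mouse arrays and deposited log2 signals that they had summarized by RMA (background correction, quantile normalization and median polish). The submitters' processing notes name Affymetrix Expression Console 1.1. The labels and the methods name different labeling kits. Groups and tumor numbers came from the titles. Of 28846 probe sets, 94 controls and 6546 with names beginning MG- were left out, and the other 22206 were tested. Genes were named by the array annotation held at GEO, and the probe set with the highest mean was taken per gene, although every member had 1. The genotypes were compared 2-sided in limma 3.58.1 (lmFit, eBayes; R 4.3.3) with no covariate, with Benjamini-Hochberg adjustment over all 22206 probe sets and a threshold of 0.05. For single members an exact permutation test took every one of 116280 ways to split the tumors. The limma script was tested on simulated data. The number of arrays limits the precision. Class means, pair differences and correlations are descriptions without tests.

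The members and lists were chosen with earlier results of these data known. Any member could be named. Given in full were the 7 fast and slow pairs, Actc1, Tnnt2, Acta1, Ckm, Atp2a1, Pvalb and the members of smallest p or widest spread, and genes outside the members were named from the lists after their values had been seen. Alternatives changed the covariates, tumors, weights, variance model, test, normalization and probe sets. Leaving out NPE 1 and NPE 2, and these with NPE 3, was added after seeing the data. Start regions came from RefSeq (GRCm38.p6). Figures were drawn with matplotlib 3.10.9.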

Additional observations from a re-analysis of the deposited data

How the results depend on the processing

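No member was called under any alternative except 2. With the tumor number as a replicate block 1 member was called (Myl2, 0.89, adjusted p = 0.042 from limma), where 1.09% of all probe sets were, and the medians were 0.54 for fast, -0.50 for slow and -0.66 for cardiac-fetal genes. The numbers do not pair the tumors, since tumors of the same number correlated at -0.31 to 0.13 in their deviations from the group means. With title numbers 28 to 35 only, 6 members were called and the slow median was 0.69. With title numbers 18 to 23 only, the cardiac-fetal median was 0.43. Differences of 13 members changed sign with the title range as a block, of 12 for title numbers 28 to 35, of 13 for title numbers 18 to 23 and of 7 with the replicate block. Among the members given in full, the values with the title range as a block were 1.35 for Myh7, 0.23 for Myl1, 0.39 for Tnnt1, 0.40 for Tnni1, 0.59 for Tnnc1, 0.13 for Actc1 and 0.32 for Tnnt2. For title numbers 28 to 35 they were 1.65 for Myh7, 0.31 for Myl1, 0.43 for Tnnt1, 0.51 for Tnni1, 0.87 for Tnnc1 and 0.43 for Tnnt2. For title numbers 18 to 23 they were 0.84 for Myh7, 0.079 for Myl1, 0.31 for Tnnt1, 0.21 for Tnni1, 0.12 for Tnnc1, 0.72 for Actc1 and 0.14 for Tnnt2. The other 6 under each of these settings were Actn2, Ttn, Neb, Myom2, Ryr1 and Cacna1s, all with a difference above 0 there, with Actn2 highest at 0.92, 1.24 and 0.36. The replicate block gave -0.074 for Mylpf, -0.46 for Mybpc1 and -0.18 for Acta1, with Cacng1 (-0.42), Ldb3 (-0.24), Tpm2 (-0.060) and Mb (-0.0025) turned as well. Averaging tumors that resemble each other gave -0.0015 for Mylpf, -0.17 for Mybpc1 and -0.077 for Acta1. Without NPE 1, 2 and 3 it was 0.081 for Myl1, 0.057 for Tnnt1, 0.066 for Tnni1, 0.16 for Tnnc1 and 0.047 for Tnnt2, and without NPE 1 and 2 it was -0.0090 for Acta1. Myl1 was 0.019 with array weights and 0.011 after another quantile normalization. Leaving out each tumor in turn gave -0.023 to 0.27 for Mylpf, -0.096 to 0.083 for Myl1, -0.36 to 0.057 for Tnnc1, -0.12 to 0.37 for Mybpc1 and -0.061 to 0.21 for Acta1. It left 0 members called each time, and the fast minus slow difference ranged from 0.50 to 0.69. The causes were not tested. A plain test of the group means with equal variances, which for these groups equals the ANOVA that the methods name, called 0 members after Benjamini-Hochberg adjustment and 7 before it, on the same values.

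Background correction and summarization were not varied, because the analysis began from summarized values. Site, sex, age and mouse of each tumor were not known, and title range 1 to 10 held no PE tumor, so there range and genotype cannot be told apart.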
